A study of Neurospora crassa with 33 samples.

Results

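The genes described here are the 4 core translation factors of *N. crassa* NCU02003 (eEF1A, *tef-1*), NCU07700 (eEF2, *cot-3*), NCU07922 (eEF3) and NCU08277 (eIF2α). They were chosen by identifier for their role in translation and not by any measured value, though with earlier results of these data known. They are 4 of the 9729 genes listed in every library. The symbols *tef-1* and *cot-3* stand in the RefSeq gene table of the NC12 assembly, while NCU07922 and NCU08277 have no symbol there and carry the names that came with the list of genes. The listed CDS are 1383 nt for eEF1A, 2535 nt for eEF2, 3171 nt for eEF3 and 933 nt for eIF2α, so that eEF3 has the longest and eIF2α the shortest coding sequence among them. Ribosome profiling (25 libraries of ribosome protected fragments, RPF) and mRNA-seq (8 libraries) were compared between WT and Δ*cpc-3* strains. The Δ*cpc-3* strains lack CPC-3, the kinase of eIF2α. Every strain, the controls included, carried a Flag-tagged EDP reporter, expressed from the *ccg-1* promoter at the *csr-1* locus. EDP is the product of NCU05784, and its CDS was used in 1 copy (1×) or 3 copies (3×), either with the native codons (WT-EDP) or with optimized ones (OPT-EDP). All strains were homokaryotic transformants, grown as still cultures and then with shaking for 12 h, in nutrient replete medium with 2% glucose, and cycloheximide was added only to the lysate, at 0.1 mg/ml. Each combination of host and reporter is 1 strain, so a difference between reporters and a difference between transformed strains cannot be told apart. The RPF were sequenced in 3 replicates per strain (4 for Δ*cpc-3* 1× WT-EDP), which makes 12 libraries of the WT host and 13 of the mutant host, and the mRNA in 1 library per strain. Values given 4 at a time stand in the order 1 and 3 copies of WT-EDP, then 1 and 3 copies of OPT-EDP.

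In eukaryotes eEF1A is the GTPase that carries each aminoacyl-tRNA to the A site of the ribosome, and eEF2 is the GTPase that moves the ribosome along by a codon. eEF3 is an ATPase found in fungi which, in budding yeast, acts at the E site and helps the used tRNA to leave. eIF2α is the regulatory subunit of eIF2, the factor that brings the initiator tRNA to the small ribosomal subunit. CPC-3 is the *Neurospora* counterpart of yeast GCN2, and phosphorylation of eIF2α by this kinase limits the recycling of eIF2 and with it the start of translation. The libraries measure the mRNA of these factors and the ribosomes on it. They do not measure the amount of protein or the phosphorylation of eIF2α, and in these bulk cultures a change in the number of cells that express a gene and a change in its RNA per cell cannot be told apart.

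The label of the hosts was checked with the deleted gene. The *cpc-3* mRNA (NCU01187) was 8.20 to 12.6 TPM in the WT host and 0.129 to 0.614 TPM in the mutant, and its RPF were 5.81 to 7.69 TPM against 0 to 0.117 TPM. Depth on CDS regions was 1270403 to 10035080 reads per RPF library and 938863 to 1747779 per mRNA library. TPM, the unit of level used by the study, is the FPKM of a gene over the sum of all FPKM of its library. A single 78-nt CDS, NCU16635, took up to 38.3% of that sum in the RPF libraries and up to 33.5% in the mRNA libraries.

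The deposited FPKM and the interval deposited around it did not follow each other in the RPF libraries, and this touches every RPF value below. For eEF1A the FPKM was 1.01 to 1.07 times the midpoint of its own interval in the 8 mRNA libraries. In the RPF libraries the same ratio was 0.744 to 0.860 in the 8 WT libraries numbered 1 and 2 and 1.06 to 1.12 in the 4 WT libraries numbered 3. It was 0.678 to 0.725 in replicates 1 to 3 of Δ*cpc-3* 1× WT-EDP and 0.310 to 0.408 in the other 10 Δ*cpc-3* libraries. The ratio of eEF2 and eEF3 followed that of eEF1A, at 0.330 to 0.419 and 0.293 to 0.379 in the other 10 Δ*cpc-3* libraries. For eIF2α it was 0.546 to 0.655 in the same 10 libraries. Among all genes with a long CDS the median ratio was 0.682 to 0.755 there, above that of each of the 4 factors. The spacing of the interval bounds corresponds to whole reads, so the midpoint follows the reads per kilobase of the listed CDS, and the step that sets the FPKM apart from it is not described in the sources used here. All values are therefore given on the FPKM scale and on the midpoint scale, where the midpoint of the interval takes the place of the FPKM in the TPM. The mRNA levels also depended on the scale. In the mRNA libraries NCU16635 took 23.6% to 33.5% of the FPKM sum but 0.845% to 1.28% of the midpoint sum. In the RPF libraries its share of the midpoint sum was at most 1.23%. The eEF1A mRNA of WT 1× WT-EDP, with a ratio of 1.02, was 7690 TPM from FPKM and 15503 TPM from the midpoint. The part of the FPKM to midpoint ratio in each result was not tested beyond giving the values on both scales.

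**Figure D1:**
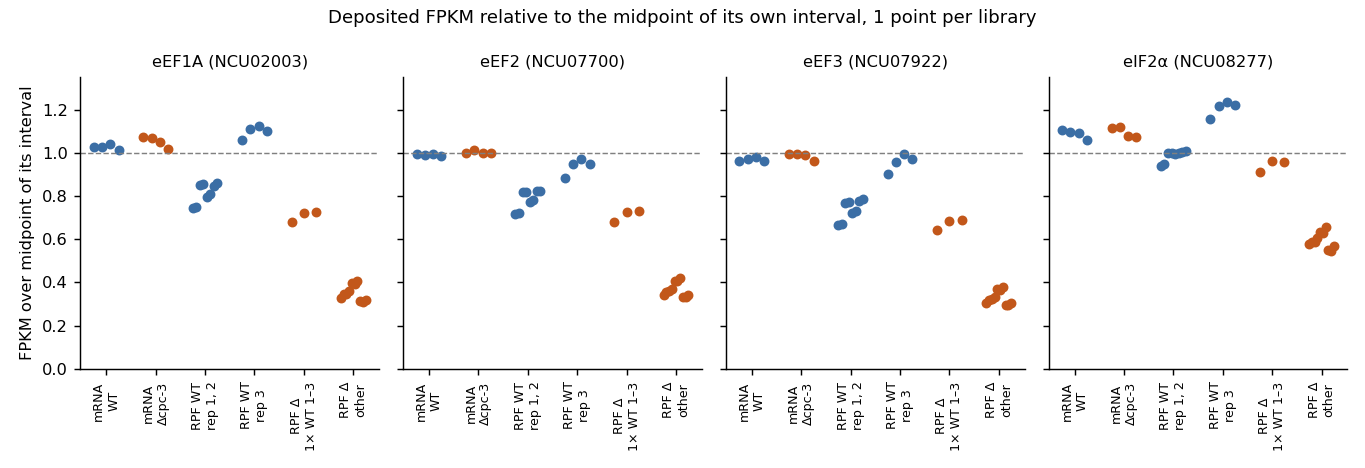
Ratio of the deposited FPKM to the midpoint of its interval (y axis, no unit) for each factor, with 1 point per library and libraries grouped by assay, host and replicate along the x axis. The mRNA libraries lie close to 1, and the 10 other Δ*cpc-3* RPF libraries lie lowest, at 0.310 to 0.408 for eEF1A and 0.546 to 0.655 for eIF2α.

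The mRNA of eEF1A was the most abundant of the factors in every library, followed by eEF2, eEF3 and eIF2α. In WT the eEF1A mRNA was 7690 TPM (1× WT-EDP), 7164 TPM (3× WT-EDP), 6131 TPM (1× OPT-EDP) and 6086 TPM (3× OPT-EDP). In Δ*cpc-3* it was 9333, 9456, 8699 and 9036 TPM in the same order. Every Δ*cpc-3* library was above every WT library, and the gene ranked 10 to 12 of all genes in WT and 5 to 8 in Δ*cpc-3*. The eEF2 mRNA was 1596, 1446, 1251 and 1220 TPM in WT and 1732, 2095, 1861 and 1799 TPM in Δ*cpc-3*, again without overlap of the hosts. The share of all genes whose hosts did not overlap was not counted, here or for RPF and density below. The eEF3 mRNA was 366, 315, 265 and 248 TPM in WT and 299, 289, 258 and 289 TPM in Δ*cpc-3*. The hosts overlapped, and the WT libraries spread more widely than the Δ*cpc-3* libraries, which all lay within the WT range. The eIF2α mRNA was 178, 151, 140 and 150 TPM in WT and 119, 133, 107 and 107 TPM in Δ*cpc-3*, with every Δ*cpc-3* library below every WT library. Behind these values were 16402 to 40946 reads for eEF1A and 231 to 370 reads for eIF2α, so the level of eIF2α was the least precisely counted.

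**Figure D2:**
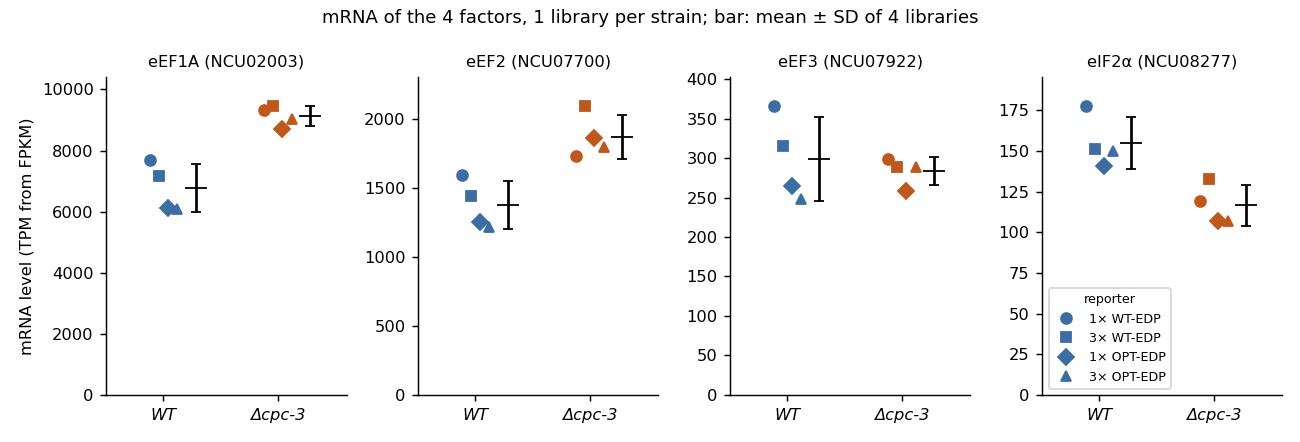
mRNA level in TPM from FPKM (y axis, from 0) of each factor in WT and Δ*cpc-3*, with 1 symbol per library and reporter and the mean ± SD of the 4 libraries beside them. The Δ*cpc-3* libraries of eEF1A (8699 to 9456 TPM) lie above the WT libraries (6086 to 7690 TPM), those of eIF2α (107 to 133 TPM) lie below (140 to 178 TPM), and those of eEF3 overlap.

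On the log2(TPM + 0.1) scale, eEF1A mRNA was higher in Δ*cpc-3* by 0.44 ± 0.119 (SE, 4 against 4 libraries, adjusted p = 0.0431). The differences of eEF2 (0.45 ± 0.132, adjusted p = 0.0555), eEF3 (−0.057 ± 0.151, adjusted p = 0.813) and eIF2α (−0.41 ± 0.129, adjusted p = 0.0639) did not pass the test. Among the 7911 genes tested, 15.6% were called higher and 2.72% lower. The median gene itself was displaced upward by 0.36 in this comparison, which is most of the difference of eEF1A and eEF2. That displacement depended on the filter, at 0.15 for genes with a mean of at least 10 TPM and 0.43 with no filter. Values relative to the median gene therefore depend on the genes kept, and centring was tried with the filter of 1 TPM only. Relative to the median gene, eEF1A and eEF2 differed by 0.051 (adjusted p = 0.742) and 0.060 (adjusted p = 0.748), while eEF3 fell by 0.44 (adjusted p = 0.0384) and eIF2α fell by 0.80 (adjusted p = 0.00484). With that centring 5.73% of genes were called higher and 12.4% lower. The mRNA of eIF2α, the substrate of the missing kinase, lay farther below the median gene than that of eEF3. The mRNA differences from the midpoint were 0.45 for eEF1A (adjusted p = 0.0217), 0.47 for eEF2 (adjusted p = 0.0247), −0.039 for eEF3 (adjusted p = 0.848) and −0.38 for eIF2α (adjusted p = 0.0374), with 18.1% of genes higher and 2.98% lower. The call of eEF1A rests on the full set of libraries: it held only without WT 1× WT-EDP when 1 library at a time was left out, with adjusted p up to 0.1002. The midpoint calls were no firmer, since leaving out 1 library ended that of eEF1A in 4 of 8 fits (adjusted p up to 0.0609), that of eEF2 in 6 of 8 (kept without 1× WT-EDP of either host, otherwise up to 0.0666) and that of eIF2α in all 8 (up to 0.0917). Relative to the median gene on that scale, eEF1A was at 0.041 (adjusted p = 0.780) and eEF2 at 0.065 (adjusted p = 0.704). No factor passed the test for codons or copies of the reporter at the mRNA level, where 0% of genes were called higher and 0% to 0.0253% lower.

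The RPF of eEF1A moved in opposite directions on the FPKM and midpoint scales. In WT the eEF1A RPF were 5595, 5659 and 8090 TPM in the 3 replicates of 1× WT-EDP, 5512, 5559 and 7816 TPM in 3× WT-EDP, 5016, 5057 and 7047 TPM in 1× OPT-EDP and 5277, 5370 and 7417 TPM in 3× OPT-EDP. The third library was the highest of its strain each time. In these libraries NCU16635 took up to 12.1% of the TPM, against 22.4% to 25.4% in the WT libraries numbered 1 and 2. In Δ*cpc-3* they were 5842, 5762, 5724 and 3156 TPM in the 4 replicates of 1× WT-EDP, and 3068 to 3554 TPM in the 9 libraries of the other strains. The hosts overlapped only through the first 3 replicates of Δ*cpc-3* 1× WT-EDP. From the midpoint the same gene stood at 11223 to 13680 TPM in WT (median 12359) and at 14742 to 17141 TPM in Δ*cpc-3* (median 15840). There the hosts did not overlap, Δ*cpc-3* was the higher, and the replicates of a strain lay close together (13573 to 13680 TPM in WT 1× WT-EDP). The RPF values rested on 28446 to 161571 reads per library.

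The eEF2 RPF, on the FPKM scale, were 898 to 1415 TPM in WT (median 1020.2) and 570 to 923 TPM in Δ*cpc-3* (median 667), with the hosts overlapping by the highest Δ*cpc-3* library. From the midpoint they were 2147 to 2847 TPM in WT (median 2353) and 2269 to 3253 TPM in Δ*cpc-3* (median 2898). Within Δ*cpc-3* 1× WT-EDP the first 3 replicates (2495, 2289 and 2269 TPM) lay below the fourth (2967 TPM), which lay within the range of the remaining mutant strains (2823 to 3253 TPM).

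The eEF3 RPF were lower in Δ*cpc-3* on both scales. In WT they were 279, 282 and 376 TPM with 1× WT-EDP, 255, 258 and 342 TPM with 3× WT-EDP, 222, 222 and 289 TPM with 1× OPT-EDP and 201, 209 and 269 TPM with 3× OPT-EDP. In Δ*cpc-3* they were 140, 143, 135 and 71.5 TPM with 1× WT-EDP and 70.6 to 90.6 TPM with the other reporters, so that all 13 libraries lay below all 12 of WT. With the midpoint eEF3 stood at 492 to 763 TPM in WT (median 597) and 365 to 489 TPM in Δ*cpc-3* (median 409), and the hosts came close to each other but did not overlap. The WT strains fell into an order that the mRNA shared, with 741 to 763 TPM for 1× WT-EDP, 632 to 643 TPM for 3× WT-EDP, 522 to 562 TPM for 1× OPT-EDP and 492 to 512 TPM for 3× OPT-EDP. The mRNA of eEF3 in these strains, on the same scale, was 784, 672, 599 and 571 TPM.

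The eIF2α RPF were 155 to 209 TPM in WT (median 169) and 83.3 to 134 TPM in Δ*cpc-3* (median 100.3), without overlap on the FPKM scale. With the midpoint they were 296 to 338 TPM in WT (median 307) and 227 to 311 TPM in Δ*cpc-3* (median 273), with overlap. The lowest libraries were replicates 2 and 3 of Δ*cpc-3* 1× WT-EDP, at 227 and 248 TPM. Between 309 and 2868 reads lay behind each of these values.

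**Figure D3:**
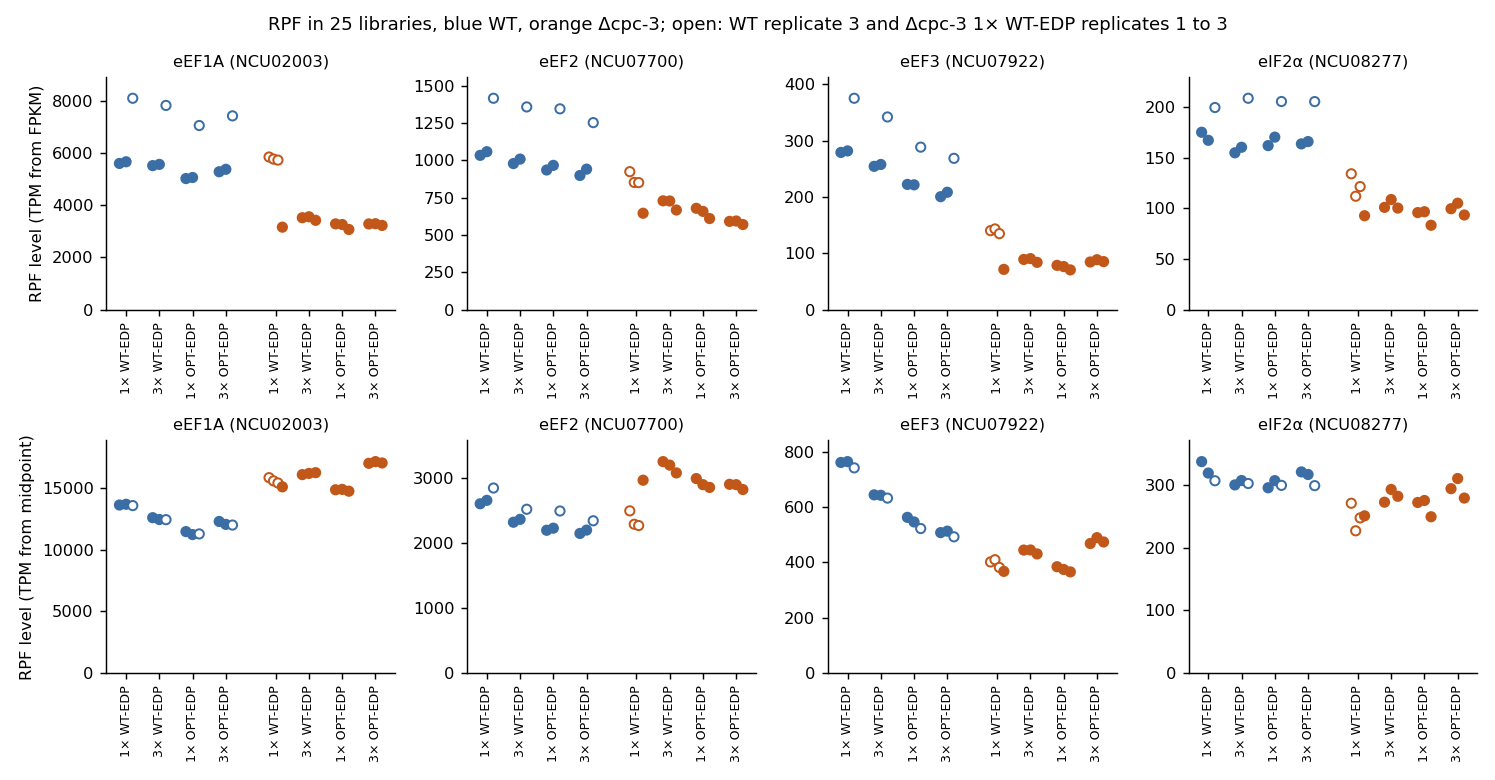
RPF level of each factor in the 25 RPF libraries (y axis, TPM from 0) by strain (x axis), from FPKM in the upper row and from the interval midpoint in the lower row, with 1 point per library. Open points are WT replicate 3 and Δ*cpc-3* 1× WT-EDP replicates 1 to 3, which lie high in the upper row, and eEF1A in Δ*cpc-3* lies below most of WT in the upper row and above all of WT (14742 to 17141 against 11223 to 13680 TPM) in the lower row.

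The replicates of a strain were merged to 8 profiles, and 4 Δ*cpc-3* profiles were compared with 4 WT profiles by limma. On the FPKM scale the RPF of all 4 factors were lower in Δ*cpc-3*, with differences of −0.64 ± 0.148 for eEF1A (SE, adjusted p = 0.00509), −0.59 ± 0.118 for eEF2 (adjusted p = 0.00227), −1.46 ± 0.161 for eEF3 (adjusted p = 9.54e-05) and −0.72 ± 0.096 for eIF2α (adjusted p = 0.000236) on the log2 scale. The background was high, since 38.7% of the 6695 genes tested were called lower and 15.2% higher. The median gene shifted by −0.18, and relative to it the differences were −0.48, −0.43, −1.30 and −0.56, all past the threshold (adjusted p = 0.00552, 0.00259, 5.99e-05 and 0.000124). With that centring 30.3% of genes were called lower and 24.9% higher.

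On the midpoint scale, where the median gene shifted by −0.0052, the RPF of eEF1A rose by 0.36 ± 0.079 (adjusted p = 0.00627) and of eEF2 by 0.28 ± 0.092 (adjusted p = 0.0335). The RPF of eEF3 fell by 0.53 ± 0.135 (adjusted p = 0.0126), and the difference of eIF2α, −0.17 ± 0.070, did not pass the test (adjusted p = 0.0842). On this scale 21.7% of genes were called higher and 22.8% lower. Relative to the median gene eEF2 was at 0.27 and did not pass (adjusted p = 0.0691). The call of eEF2 was lost in 6 of the 8 fits without 1 profile, being kept without WT 1× WT-EDP or Δ*cpc-3* 1× WT-EDP, with differences of 0.23 to 0.34. The lower RPF of eEF3 thus passed the test on both scales, whereas the direction of eEF1A and eEF2 depended on the scale.

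**Figure D4:**
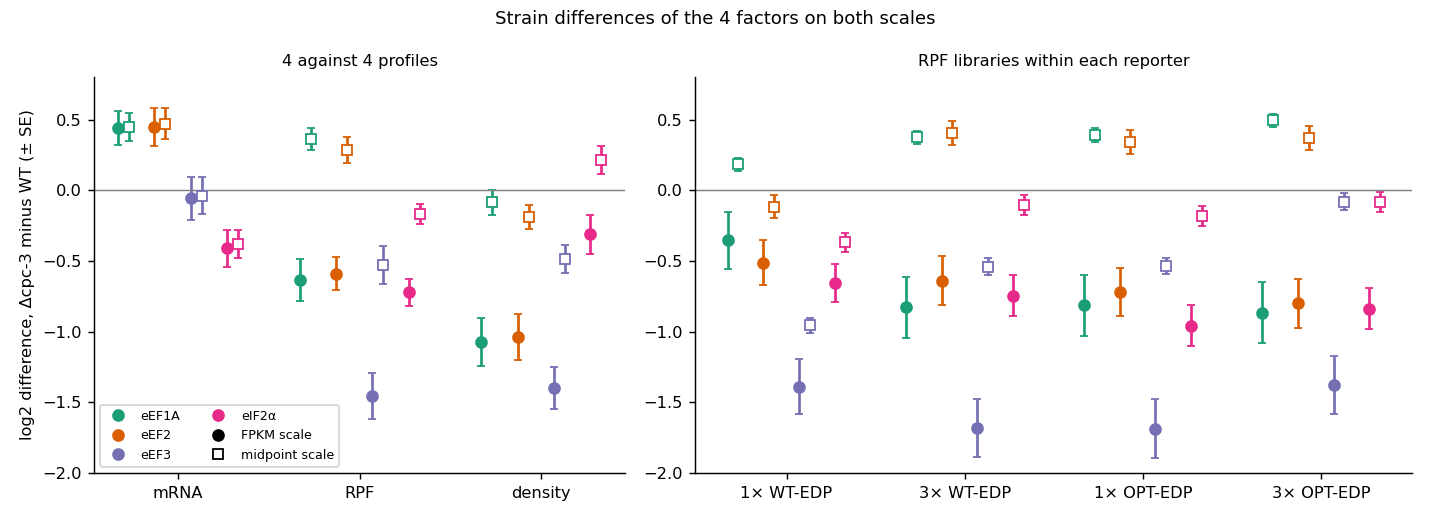
Log2 difference, Δ*cpc-3* minus WT (y axis, ± SE), of the 4 factors for mRNA, RPF and ribosome density over 4 against 4 profiles (left) and for RPF within each reporter (right), with filled circles for the FPKM scale and open squares for the midpoint scale. The mRNA differences of the scales lie together, while the RPF differences of eEF1A are −0.64 and 0.36 and those of eEF3 are −1.46 and −0.53.

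The strain difference was then taken within each reporter over single libraries. For eEF1A on the FPKM scale it was −0.36 (adjusted p = 0.181) with 1× WT-EDP, −0.83 (adjusted p = 0.00388) with 3× WT-EDP, −0.82 (adjusted p = 0.00379) with 1× OPT-EDP and −0.87 (adjusted p = 0.00283) with 3× OPT-EDP. The midpoint gave 0.18, 0.37, 0.39 and 0.49, past the threshold with every reporter (largest adjusted p = 0.00284). Relative to the median gene the midpoint difference with 1× WT-EDP was 0.090 and did not pass (adjusted p = 0.230). For scale, 23.1%, 34%, 41.8% and 32% of the 6698 genes tested were called lower on FPKM in the same order of reporters, and 12.7%, 9.69%, 7.14% and 10.2% higher. With the midpoint 21.6%, 11.3%, 14% and 14.6% were called higher.

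For eEF2 the differences were −0.51, −0.64, −0.72 and −0.80 on the FPKM scale, all past the threshold, and −0.12 (adjusted p = 0.267), 0.40, 0.34 and 0.37 on the midpoint scale, where the last 3 passed. Without Δ*cpc-3* replicate 4 the midpoint difference with 1× WT-EDP was −0.20 and passed (adjusted p = 0.0154), in a fit that called 17.1% of genes lower. The FPKM call with 1× WT-EDP (adjusted p = 0.0176) was lost without WT replicate 3 or without Δ*cpc-3* replicate 4, with adjusted p up to 0.128. For eEF3 they were −1.39, −1.68, −1.69 and −1.38 on the FPKM scale, with adjusted p of 2.88e-05 or less. The midpoint gave −0.96, −0.54, −0.54 and −0.080, and the last did not pass the test (adjusted p = 0.321). For eIF2α they were −0.66, −0.75, −0.96 and −0.84 on the FPKM scale, all past the threshold, and −0.37 (adjusted p = 0.000174), −0.10, −0.18 and −0.085 on the midpoint scale, where only 1× WT-EDP passed. The midpoint called 18%, 20.4%, 17.5% and 13% of genes lower.

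The 1× WT-EDP strains hold WT and Δ*cpc-3* libraries whose FPKM to midpoint ratios are alike, namely WT replicates 1 and 2 and Δ*cpc-3* replicates 1 to 3. Among these alone, on the FPKM scale, eEF3 was still lower in Δ*cpc-3*, with a difference of −1.01 ± 0.143 (adjusted p = 3.78e-05), and so was eIF2α, at −0.49 ± 0.141 (adjusted p = 0.0153). eEF1A differed by 0.038 ± 0.164 (adjusted p = 0.898) and eEF2 by −0.26 ± 0.163 (adjusted p = 0.269). Of all genes tested in this fit, 13% were called lower and 13.9% higher. In this set the eEF1A libraries of Δ*cpc-3* (5724 to 5842 TPM) lay above those of WT (5595 and 5659 TPM).

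With FPKM no factor passed the test for codons or copies of the reporter in either host with all 25 libraries. Of all genes, 0.746% were called higher and 0.119% lower for codons in the WT host, and 0.164% and 3.81% in the Δ*cpc-3* host, while for copies the shares were 0.0597% and 0.0149% in WT and 0.732% and 1.96% in Δ*cpc-3*. This depended on replicate 4 of Δ*cpc-3* 1× WT-EDP. Without it, that strain keeps libraries with an eEF1A FPKM to midpoint ratio of 0.678 to 0.725, against 0.310 to 0.408 in the other Δ*cpc-3* strains. The OPT against WT codon contrast in the Δ*cpc-3* host then passed for eEF1A (−0.48, adjusted p = 0.00634), eEF2 (−0.35, adjusted p = 0.0263) and eEF3 (−0.46, adjusted p = 0.00268). The copy contrast then passed for eEF1A (−0.35, adjusted p = 0.0442). The background was larger there too, since that fit called 23.7% of genes lower and 1.61% higher for codons, and 14.7% lower and 3.84% higher for copies. With all 25 libraries and the replicate number as a block, the same contrasts passed with the same differences (adjusted p = 0.00211, 0.0161, 0.00147 and 0.0189), and 25.5% and 16.5% of genes were called lower. Only this library carries the number 4, so the block gives it a term of its own. With only the Δ*cpc-3* libraries of like ratio kept, 1 library of Δ*cpc-3* 1× WT-EDP is left. The median gene then differed by −0.0445 for codons and 0.0369 for copies in the Δ*cpc-3* host. The part of the ratio in these contrasts was not tested. From the midpoint, eEF3 RPF were lower with OPT than with WT codons in the WT host, with a difference of −0.41 ± 0.040 (adjusted p = 4.04e-06), and so were those of eEF1A, at −0.16 ± 0.034 (adjusted p = 0.0159), where 1.19% of genes were called lower and 1.25% higher. Relative to the median gene the eEF1A difference was −0.15 and did not pass (adjusted p = 0.0772). In the Δ*cpc-3* host the codon contrast was 0.030 for eEF3 (adjusted p = 0.766) and 0.008 for eEF1A (adjusted p = 0.935). With 3 rather than 1 copies in the Δ*cpc-3* host, eEF3 was higher by 0.26 ± 0.039 (adjusted p = 0.000739), eEF1A by 0.13 ± 0.033 (adjusted p = 0.0226) and eIF2α by 0.17 ± 0.048 (adjusted p = 0.046), where 2.13% of genes were called higher. The eEF1A call was lost without 1 library (adjusted p = 0.05495), replicate 3 of Δ*cpc-3* 1× OPT-EDP, and that of eIF2α in 20 of 25 fits without 1 library, with adjusted p up to 0.1199. On this scale the eEF2 copy contrast in the Δ*cpc-3* host also rested on replicate 4 of Δ*cpc-3* 1× WT-EDP, at 0.17 with it (adjusted p = 0.0975) and 0.21 without it (adjusted p = 0.00391, with 4.87% of genes called higher). The codon and copy terms can each hold differences between single transformed strains.

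The difference between hosts was then compared between the reporter strains. The strain difference of eEF3 on the midpoint scale was less negative with OPT than with WT codons by 0.44 ± 0.056 (adjusted p = 0.000115), and less negative with 3 than with 1 copies by 0.44 ± 0.056 (adjusted p = 0.000511). These terms were called higher in 0.881% and 1.09% of genes. Both held in all 25 fits without 1 library. The SE comes from replicate libraries, with 1 transformed strain per host and reporter, so these terms can hold differences between single strains. The eEF3 mRNA on the same scale was 784, 672, 599 and 571 TPM in WT and 644, 620, 586 and 691 TPM in Δ*cpc-3*. The part of the mRNA in these terms was not tested. With FPKM the same terms were 0.003 (adjusted p = 0.996) and 0.009 (adjusted p = 0.991), with 0.0746% and 0.164% of genes called higher and 2.36% and 0.612% lower. None of the other factors passed on either scale with all libraries. Without replicate 4 of Δ*cpc-3* 1× WT-EDP the midpoint terms also passed for eEF1A (0.16 and 0.14, adjusted p = 0.0287 and 0.0435) and eEF2 (0.25 and 0.32, adjusted p = 0.0230 and 0.00451), in fits that called 2.22% and 2.76% of genes higher. When only the Δ*cpc-3* libraries of like FPKM to midpoint ratio were kept, which leaves 1 library of Δ*cpc-3* 1× WT-EDP that is assumed to vary like the others, the eEF3 terms on FPKM were 0.36 (adjusted p = 0.355) and 0.37 (adjusted p = 0.318).

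Ribosome density is RPF TPM over mRNA TPM, that is the ribosomes on a CDS for each unit of its mRNA. On the FPKM scale the density of eEF1A was 0.807, 0.817, 0.908 and 0.917 in WT and 0.553, 0.371, 0.373 and 0.362 in Δ*cpc-3*. The density of eEF2 was 0.709, 0.721, 0.842 and 0.788 in WT and 0.483, 0.341, 0.355 and 0.327 in Δ*cpc-3*. The density of eEF3 was 0.828, 0.851, 0.905 and 0.858 in WT and 0.413, 0.307, 0.297 and 0.299 in Δ*cpc-3*. For all 3 elongation factors the Δ*cpc-3* profiles lay below the WT profiles, and Δ*cpc-3* 1× WT-EDP was the highest of its host. The density of eIF2α was 1.00, 1.09, 1.26 and 1.13 in WT and 1.00, 0.783, 0.886 and 0.945 in Δ*cpc-3*, so that the highest Δ*cpc-3* profile and the lowest WT profile were equal to 3 digits.

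The density fell on the FPKM scale by 1.08 ± 0.17 for eEF1A (adjusted p = 0.00318), 1.04 ± 0.161 for eEF2 (adjusted p = 0.0030) and 1.40 ± 0.147 for eEF3 (adjusted p = 0.00102), each past a 2-fold change. That threshold reads the ratio of the mean densities of the hosts, Δ*cpc-3* over WT, which was 0.481 for eEF1A and 0.492 for eEF2 and so lay close to 0.5. Without replicate 4 of Δ*cpc-3* 1× WT-EDP the ratios were 0.501 and 0.504, and both calls were lost. Across fits without 1 profile, the 2-fold call of eEF2 held in 4 of 8 and that of eEF1A in 7 of 8 (lost without Δ*cpc-3* 3× OPT-EDP, where the ratio was 0.502), with log2 differences of −1.16 to −0.98 and −1.22 to −1.02. The difference of eIF2α was −0.31 ± 0.138 (adjusted p = 0.107). Of the 6686 genes tested, 14.1% were called lower and 0.359% higher, and 37.6% were lower by the adjusted p alone. With a minimum of 10 TPM the median gene shifted by −0.37, and with the minimum of 1 TPM used here by −0.51. Relative to it eEF1A, eEF2 and eEF3 were lower, at −0.58, −0.54 and −0.90 (adjusted p = 0.0296, 0.0287 and 0.00345), short of a 2-fold change, and eIF2α was at 0.19 (adjusted p = 0.290). With that centring 2.77% of genes were called lower and 2.42% higher, and 7.61% were lower and 7.37% higher by the adjusted p alone.

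The density of eEF1A on the midpoint scale was 0.865 to 0.912 in WT and 0.795 to 0.854 in Δ*cpc-3*, and that of eEF2 was 0.783 to 0.821 against 0.695 to 0.723. That of eEF3 was 0.965, 0.954, 0.911 and 0.888 in WT and 0.607, 0.712, 0.644 and 0.691 in Δ*cpc-3*, and that of eIF2α was 0.977, 1.06, 1.05 and 1.00 in WT and 1.12, 1.12, 1.22 and 1.30 in Δ*cpc-3*. The hosts did not overlap for any of the 4 factors, with Δ*cpc-3* lower for the elongation factors and higher for eIF2α. How many of all genes separate the hosts in this way was not counted. The log2 differences were −0.086 for eEF1A (adjusted p = 0.508), −0.19 for eEF2 (adjusted p = 0.153), −0.49 ± 0.099 for eEF3 (adjusted p = 0.0145, short of 2-fold) and 0.21 for eIF2α (adjusted p = 0.159). By the adjusted p alone 20% of genes were lower and 2.33% higher, and with the 2-fold threshold 7.15% and 0.269%.

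The median gene shifted by −0.31 in density on the midpoint scale. A wider set than the 6686 tested holds the genes with a mean of at least 1 TPM over all RPF and mRNA profiles together. Its median density was 0.821 to 0.882 in WT and 0.651 to 0.676 in Δ*cpc-3*. Relative to the median gene, the density of eIF2α was higher in Δ*cpc-3* by 0.52 ± 0.102 (adjusted p = 0.0181), where 8.09% of genes were higher by the adjusted p alone, and it did not reach a 2-fold change. The differences of eEF1A (0.22, adjusted p = 0.159), eEF2 (0.11, adjusted p = 0.431) and eEF3 (−0.19, adjusted p = 0.262) did not pass. Between 68.5% and 76.9% of the genes in this wider set had a lower density than eIF2α in WT, and 82.7% to 91.4% did in Δ*cpc-3*. With FPKM these ranges were 61.9% to 75.4% and 62.3% to 73.8%, so the move up the ranking was seen on the midpoint scale only. In both hosts eIF2α had the highest density of the 4 factors on either scale.

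Ratios within a library do not depend on the sum of the library. At the mRNA level eEF1A stood at 4.82 to 4.99 times eEF2 in WT and 4.51 to 5.39 times in Δ*cpc-3*, so the range in Δ*cpc-3* was wider and held that of WT. The ratio of eEF1A to eEF3 mRNA was 21.0 to 24.6 in WT and 31.2 to 33.7 in Δ*cpc-3*, without overlap. The RPF ratio of eEF1A to eEF3 from the midpoint was 18.0 to 23.9 in WT and 35.7 to 39.8 in Δ*cpc-3*, and on the FPKM scale 20.5 to 26.3 and 37.9 to 42.3. This shift of eEF3 against eEF1A was thus seen in both assays and on both scales. The ratio of eEF1A to eIF2α mRNA was 40.5 to 47.4 in WT and 71.1 to 84.4 in Δ*cpc-3*. At the level of RPF it was 37.6 to 42.1 and 54.9 to 60.5 on the midpoint scale, but 31.5 to 35.6 and 32.4 to 43.3, with overlap, on the FPKM scale. The order of the lowest pair also depended on the scale, since eEF3 RPF in Δ*cpc-3* were 0.811 to 1.03 times those of eIF2α on FPKM and 1.39 to 1.59 times on the midpoint. These ratios are descriptions, and no test was made on them.

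Lists of genes with like roles were counted beside the 4 factors. They come from terms that the study listed within short CDS with optimal codons, so they were chosen on the length and codons of the genes. Of 5 genes annotated to translational elongation, none passed the test for mRNA on the FPKM scale (median difference −0.12, against 0.36 over all tested genes). Of all genes 15.6% were higher and 2.72% lower there. On the midpoint 1 of the 5 was lower, NCU08332 (−0.36, adjusted p = 0.0474), beside 2.98% of all genes. For RPF 4 of the 5 were lower on either scale, with a median of −0.85 on FPKM and −0.48 on the midpoint, against −0.18 and −0.0052 over all genes, of which 38.7% and 22.8% were lower. Among them was NCU05274 (*eif5A*), whose product eIF5A binds stalled ribosomes in yeast. Its RPF differed by −0.90 on FPKM (adjusted p = 0.000434) and −0.34 on the midpoint (adjusted p = 0.0195). Its density was lower by the adjusted p alone, at −0.99 (adjusted p = 0.00268) on FPKM and −0.45 (adjusted p = 0.0217) on the midpoint. NCU08332 (*hex-1*, the protein of the Woronin body that plugs septal pores) differed by −0.85 (adjusted p = 0.000215) and −0.48 (adjusted p = 0.000825) in RPF. NCU00979 differed by −0.46 (adjusted p = 0.00894) and −0.49 (adjusted p = 0.00283). NCU08960, at −0.21 and −0.27, did not pass on either scale (adjusted p = 0.178 and 0.0520).

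Of 11 genes annotated as translation initiation factors, 3 were higher and 3 lower for RPF on the FPKM scale (median −0.33), and 3 were higher and 1 lower on the midpoint scale (median 0.031). Of all tested genes 15.2% were higher and 38.7% lower on FPKM, and 21.7% and 22.8% on the midpoint. The mRNA of 1 of the 11 was higher and that of 2 lower (median −0.080), against 15.6% and 2.72% of all genes. NCU09004 was the gene higher in mRNA, by 1.39 (adjusted p = 0.0012). Its RPF were higher by 1.54 (adjusted p = 2.80e-06) on FPKM and 1.76 (adjusted p = 3.73e-06) on the midpoint. Its mean mRNA, by which it was named, was 226 TPM over both hosts but 124 TPM in WT. NCU09707 stood above it in WT, at 152 TPM. NCU09707 differed by −0.47 in mRNA (adjusted p = 0.0244), and by −0.86 and −0.39 in RPF (adjusted p = 0.000344 and 0.00956). The RPF of NCU01981 were higher by 0.62 and 0.68 and those of NCU09748 by 0.43 and 0.46 (adjusted p = 0.00212 or less). NCU07437, at −0.33 and 0.18, did not pass (adjusted p = 0.0505 and 0.0714). Of 32 genes of the cytosolic small ribosomal subunit, 23 were lower and 2 higher for RPF on FPKM (median −0.69) and 20 lower and 3 higher on the midpoint (median −0.42), beside the same shares of all genes (38.7% and 15.2%, and 22.8% and 21.7%). For mRNA 2 of the 32 were higher and none lower (median −0.039), beside 15.6% and 2.72% of all genes. NCU01949 stands in both the elongation and the ribosomal list.

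The 25 RPF profiles of each factor were correlated with those of 3776 genes with a mean RPF of at least 10 TPM. This is a description, because all points share the library and its FPKM to midpoint ratio. On the FPKM scale the closest genes were *atp-2* (Pearson's r = 0.987) for eEF1A, *ylo-1* (r = 0.984) for eEF2, NCU00021 (r = 0.996) for eEF3 and NCU06783 (r = 0.991) for eIF2α. The next ones were NCU04404 and NCU03980 for eEF1A, *chs-1* and NCU06785 for eEF2, NCU04799 and *pyr-3* for eEF3, and NCU06226 and NCU08685 for eIF2α. The 4 factors correlated with each other at r = 0.916 to 0.973 on this scale. On the midpoint scale eEF1A correlated with eEF2 at r = 0.708 but with eEF3 at r = −0.519 and with eIF2α at r = −0.487, and eEF3 correlated with eIF2α at r = 0.781. NCU00021 was among the 3 closest genes of eEF3 on either scale (r = 0.966 on the midpoint), and was also the closest gene to its mRNA over the 8 mRNA libraries on FPKM (r = 0.959).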

How the data were processed

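The authors mapped RPF and mRNA reads to CDS regions. Per library they deposited FPKM with an interval around it and the coverage of each CDS. The coverage was not tested as a level, and only its ratio to the FPKM was used, as the weight of a library in merging. Bowtie2 and Cufflinks are named in the submitters' processing notes, without versions, and the genome build is not given in the sources used here. All 33 libraries were assigned to host, reporter and replicate from their labels. FPKM were rescaled to TPM over all 9731 entries. The RPF replicates of a strain were merged by a weighted mean, where the study merged reads. The weight of a library was the median ratio of coverage to FPKM over its entries, in place of its number of reads. The midpoint of the deposited interval was used in place of FPKM as the midpoint scale. Interval bounds spaced by whole reads (100% of the values tested) gave the reads behind a gene, which cover counting error only.

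FPKM are not counts, so log2(TPM + 0.1) was tested with limma 3.58.1 (R 4.3.3) across all genes whose mean reached 1 TPM, with Benjamini-Hochberg adjustment over all of them and a two-sided threshold of 0.05. Density calls needed also a ratio above 2 or under 0.5. The 4 reporter strains of a host served as its replicates, as in the study. Single RPF libraries were the replicates within a strain, and all 8 strains shared 1 estimate of spread. The study calls the RPF replicates biological, and 1 mRNA library per strain gives no spread within a strain. Fits were unpaired. Because log2(TPM + 0.1) is used, changes of low genes are understated. The scripts were tested on simulated data with known changes.

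The 4 genes and the lists were chosen with earlier results of these data known. The genes named are the 4 factors, *cpc-3*, the 3 most correlated genes of each, and up to 4 genes per list with the highest mean mRNA over both hosts. NCU16635 was named for its share of the TPM and NCU09707 for its mRNA level in WT. The table of reference genes pairs no product names with identifiers, so no list could be drawn from product names. Alternatives were tried for the pseudocount, the filter on low values, NCU16635 in the sum, centring on the median gene, the scale, the merging, the variance trend of limma, the replicate block and each library left out. Calculations used Python 3.11.15, numpy 2.4.6 and pandas 2.3.3, and plots matplotlib 3.10.9.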

Additional observations from a re-analysis of the deposited data

Results flagged for a closer look

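For the 4 factors, 56 groups of 4 values each were searched for a sample far from the others, and 6 held one. Chance alone gives about 1 in 20 for a single group. Many of the groups share libraries, so they are not separate tests.

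On the FPKM scale, replicate 4 of Δ*cpc-3* 1× WT-EDP stood apart for 2 factors. Its eEF1A RPF were 3156 TPM, against 5724 to 5842 TPM in the other 3 replicates, and its eEF3 RPF were 71.5 TPM, against 135 to 143 TPM. Its FPKM to midpoint ratio was that of the other Δ*cpc-3* strains, while replicates 1 to 3 had a higher one.

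Among the merged Δ*cpc-3* profiles, 1× WT-EDP stood above the other strains. Its eEF1A RPF were 5165 TPM (others 3242 to 3512 TPM), its eEF1A density was 0.553 (others 0.362 to 0.373) and its eEF3 density was 0.413 (others 0.297 to 0.307). Among the Δ*cpc-3* mRNA libraries on the midpoint scale, 3× OPT-EDP had 20449 TPM of eEF1A (others 18611 to 18914 TPM). The part of the FPKM to midpoint ratio in these values was not tested.

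Of 16 tests of whether a host difference differed between the reporter strains, 2 passed, both for eEF3 RPF on the midpoint scale. They were 0.44 for OPT minus WT codons and 0.44 for 3 minus 1 copies, on the log2 scale. With 1 transformed strain per host and reporter, they can hold differences between single strains.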

How the results depend on the processing

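For the 4 factors, 461 comparisons with an alternative other than a left-out library kept their direction and side of the threshold. In 12 the direction reversed with a call in either fit, and in 34 it changed with no call in either. A call was lost in 27 and gained in 18. With a library or profile left out, 2112 kept both, 59 lost a call and 16 gained one. Another 69 changed direction with no call in either fit, and none reversed with a call. The midpoint centred on the median, the set without the third WT libraries and the sets of like ratio were chosen after seeing the data. Causes were not tested.

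For mRNA, the call of eEF1A was lost with no filter on low values (0.44, adjusted p = 0.0683). eEF2 (0.45) and eIF2α (−0.41) passed with a minimum of 10 TPM (adjusted p = 0.0296 and 0.0363) or a limma trend (0.0173 and 0.0280), and eEF2 without NCU16635 in the sum (0.47, 0.0394). Centred on the median, eEF1A was 0.051, eEF3 −0.44 and eIF2α −0.80. On the midpoint eEF2 was 0.47 and eIF2α −0.38, and centred there eEF1A was 0.041, eEF2 0.065 and eEF3 −0.45. For RPF the midpoint reversed eEF1A (0.36) and eEF2 (0.28, or 0.27 centred, where it did not pass) and left eIF2α at −0.17. Within reporters it reversed eEF1A (0.18, 0.37, 0.39 and 0.49) and eEF2 (0.40, 0.34 and 0.37, in all reporters but 1× WT-EDP), and the copy contrast in Δ*cpc-3* for eEF1A (0.13), eEF3 (0.26) and eIF2α (0.17). For density, eEF1A and eEF2 fell short of 2-fold without NCU16635 (−0.95 and −0.91) and without the third WT libraries (−0.97 and −0.94), and without replicate 4 of Δ*cpc-3* 1× WT-EDP (−1.03 and −1.01). Centred, the 4 factors were at −0.58, −0.54, −0.90 and 0.19. On the midpoint they were at −0.086, −0.19, −0.49 and 0.21, and there centring gave 0.22 for eEF1A and 0.11 for eEF2.

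The count of genes called fell from 3605 to 2387 for RPF with a minimum of 10 TPM, where fewer genes were tested. For density it fell from 970 to 337 with that minimum, 643 without NCU16635, 347 centred and 496 on the midpoint (253 centred there).

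Without 1 profile, the mRNA differences ranged from 0.39 to 0.50 for eEF1A, 0.39 to 0.52 for eEF2 and −0.14 to 0.047 for eEF3, and 740 to 1333 genes were called (1448 with all). On the midpoint they ranged from 0.41 to 0.49, 0.44 to 0.53 and −0.10 to 0.050, with −0.42 to −0.34 for eIF2α and 977 to 1486 genes. The eEF2 RPF difference ranged from 0.23 to 0.34 on the midpoint, and density from −1.22 to −1.02 for eEF1A and −1.16 to −0.98 for eEF2.

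The WT libraries numbered 3 deviated together (correlations of 0.191 to 0.298 over 6 pairs of strains), while those numbered 2 did so less (0.018 to 0.115), and over both hosts the mean correlation of libraries of 1 number was 0.031 (84 pairs). The WT and Δ*cpc-3* strains of a reporter correlated at −0.099 to 0.203. Since not every pair passed 0.1, the numbers were not taken to pair the samples. With the replicate number as a block 1823 genes rather than 266 were called for codons in the Δ*cpc-3* host and 1392 rather than 180 for copies, and leaving out replicate 4 of Δ*cpc-3* 1× WT-EDP gave 1697 and 1239. With the reporter background as a replicate block the mRNA difference of eEF1A was 0.44 (adjusted p = 0.0948) and 529 genes were called. Depth limited eIF2α most, with 231 reads in its lowest mRNA library.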
